A study of Rattus norvegicus with 6 samples.

Results

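Heat shock proteins and other molecular chaperones were followed in the rat ovary at birth, in the days after birth and in organ culture. Their probe sets, groups of short oligonucleotides that together report 1 intensity, were taken where the array's annotation gives exactly 1 gene symbol and that symbol begins with Hspa, Hspb, Hspd, Hspe, Hsph, Hsp90, Dnaj, Cct and a number, or Pdia, or is Calr, Canx, Tcp1 or Stip1. This gave 67 of the 8799 probe sets, for 35 of the 4736 genes that the array names singly. By the compartment in which the protein works, 36 probe sets (19 genes) were cytosolic, 8 (4 genes) mitochondrial and 23 (12 genes) belonged to the endoplasmic reticulum (ER). A further 10 probe sets carry a chaperone symbol beside another symbol and were not used. Hspa8, Hspa1b and Hsp90aa1 occur among the chaperones only on such probe sets, so the constitutive HSP70 and the inducible HSP90 of the cytosol are not described here.

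Total RNA of whole ovaries was measured on 6 Affymetrix RG-U34 arrays (set A), 2 per group. The cultured group held ovaries taken at birth and kept for 7 days in culture, the P4 group ovaries of postnatal day 4, and the P0 group ovaries of the day of birth. Each array carried RNA pooled from about 20 ovaries of female pups, and the labels call the pools of a group independent. They name no strain or genotype. Culture was of whole ovaries on floating filters, in a medium with albumin, transferrin, insulin, ascorbic acid and antibiotics. The design text of the series speaks of progesterone given to cultured ovaries, but no sample label does, so it is unknown here whether either cultured array was treated. Cultured ovaries differ from P0 ovaries both in age and in having been cultured, and these cannot be told apart.

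Chaperones bind unfolded or newly made proteins. HSP70 proteins work with J-domain (DNAJ) cochaperones that deliver substrates and stimulate ATP hydrolysis, and with nucleotide exchange factors such as HSP110. HSP90 acts later, on nearly folded clients that include steroid hormone receptors and kinases. The chaperonins are ring-shaped folding chambers, made of CCT subunits in the cytosol and of Hspd1 (HSP60) with its lid Hspe1 (HSP10) in mitochondria. In the ER, Hspa5 (BiP) and Hsp90b1 (GRP94) act with the lectins calreticulin and calnexin and with protein disulfide isomerases on secreted and membrane proteins, among which in the ovary are the zona pellucida glycoproteins of the oocyte.

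The compartments have different stress responses, and the letters through which these are known to act were looked up in the promoters. Heat shock factor binds repeats of GAA and its reverse complement, and the ER stress element is bound by NF-Y and ATF6. RefSeq windows of 300 bases (250 before and 50 after the annotated gene start, rat build GRCr8) were given for 31 of the 35 genes, and not for Pdia6, Pdia3, Dnaja2 and Hspb2. A heat shock element, searched as GAANNTTCNNGAA on both strands, was found in 4 of the 31 windows: 2 of 17 cytosolic, 2 of 4 mitochondrial and 0 of 10 ER. Of all 33469 windows of the same length, 0.798% held it. The ER stress element, searched as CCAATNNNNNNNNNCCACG on both strands, was found in 4 of the 10 ER windows and in 0 of the others, against 0.0657% of all windows. Median GC content was 61.0% in the chaperone windows and 51.7% in all. A match is a description of these letters and not evidence of binding, and the absence of a match says only that they are not in this window.

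The windows below are those of the genes to which the measurements return: the called cytosolic genes Hsph1 and Hsp90ab1, a mitochondrial chaperonin gene and the ER HSP70. They read 5′ to 3′ on the strand of the gene, with the matched element in capitals. Hsph1 lies on the plus strand (chr12:10427118-10427417), Hsp90ab1 on the plus strand (chr9:22930173-22930472), Hspe1 on the plus strand (chr9:64084077-64084376) and Hspa5 on the plus strand (chr3:38452766-38453065), all in GRCr8.
Hsph1: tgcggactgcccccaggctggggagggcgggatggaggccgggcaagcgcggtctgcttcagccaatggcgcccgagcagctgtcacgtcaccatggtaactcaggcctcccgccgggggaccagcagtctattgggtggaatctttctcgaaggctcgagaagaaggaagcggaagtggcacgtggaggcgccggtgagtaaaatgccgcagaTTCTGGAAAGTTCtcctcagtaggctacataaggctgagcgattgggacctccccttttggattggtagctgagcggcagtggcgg
Hsp90ab1: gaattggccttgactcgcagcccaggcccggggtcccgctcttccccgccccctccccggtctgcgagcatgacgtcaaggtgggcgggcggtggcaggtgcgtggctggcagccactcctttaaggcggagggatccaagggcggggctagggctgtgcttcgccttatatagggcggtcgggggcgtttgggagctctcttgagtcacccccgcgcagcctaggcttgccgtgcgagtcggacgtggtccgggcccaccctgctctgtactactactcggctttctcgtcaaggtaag
Hspe1: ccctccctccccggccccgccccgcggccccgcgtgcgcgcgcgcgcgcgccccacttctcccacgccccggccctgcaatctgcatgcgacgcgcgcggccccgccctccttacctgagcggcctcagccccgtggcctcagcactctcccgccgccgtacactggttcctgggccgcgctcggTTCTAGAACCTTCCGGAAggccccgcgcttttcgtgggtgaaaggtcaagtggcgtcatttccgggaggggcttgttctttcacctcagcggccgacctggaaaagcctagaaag
Hspa5: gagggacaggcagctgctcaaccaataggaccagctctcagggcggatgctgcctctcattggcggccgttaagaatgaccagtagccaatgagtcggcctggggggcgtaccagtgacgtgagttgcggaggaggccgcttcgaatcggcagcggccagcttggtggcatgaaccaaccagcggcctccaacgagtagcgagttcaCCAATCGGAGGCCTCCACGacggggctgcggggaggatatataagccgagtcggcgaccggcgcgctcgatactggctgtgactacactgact
The Hsph1 element begins 36 bases before the gene start. The Hsp90ab1 window held neither element. Hspe1 and Hspd1 are transcribed away from each other, their windows share 211 bases, and the same pair of overlapping elements (chr9:64084262-64084279) was counted in both.

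The other matches are shown as sites, with the bases fixed by the search in capitals. They show that the spelling of the variable bases differed from gene to gene while the search letters were the same.
Dnaja1, heat shock element: GAActTTCcaGAA
Hsp90b1, distal ER stress element: CCAATcgaaaggagCCACG
Hsp90b1, proximal ER stress element, reverse strand: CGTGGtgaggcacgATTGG
Calr, ER stress element, reverse strand: CGTGGtcgaccctgATTGG
Canx, ER stress element: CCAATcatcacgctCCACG
Hsp90b1 was the chaperone gene with separate ER stress elements in its window, and in Calr and Canx the element began 232 and 230 bases before the start.

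**Figure D1:**
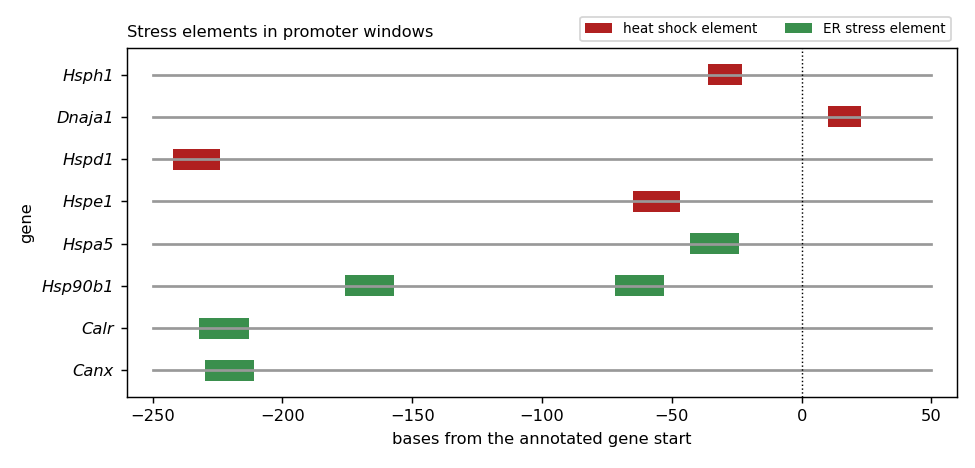
Position of heat shock elements (red) and ER stress elements (green) in the 300-base promoter windows of the 8 chaperone genes that hold one, in bases from the annotated gene start (dotted line). The elements of Hspd1 and Hspe1 are the same bases seen from opposite strands, and Dnaja1 is the gene whose element lies after the start.

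Intensities are linear values as the authors deposited them, already scaled so that the trimmed mean was 125.2 on each array. Changes are differences of log2(intensity + 7.7), which understate the changes of dim probe sets. They were tested with limma over the 6118 probe sets bright enough to test, with Benjamini-Hochberg adjusted p-values over all of these, and a change was called at an adjusted p under 0.05. Of the 67 chaperone probe sets, 62 (32 genes) were tested and 5 were too dim. The correlation across probe sets was 0.962 to 0.969 between replicate arrays and 0.913 to 0.935 between a cultured and an uncultured array. The median standard error of a change was 0.26 on the log2 scale. A control probe set for Gapdh read 1324.2 on P0 replicate 1 and 2162.3 to 2775.1 on the other arrays, so P0 replicate 1 stood apart by that measure. Values without single arrays, or by replicate number, are given with the main results that rest on them. In whole ovaries, fewer cells of a type and less RNA per cell cannot be told apart.

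Few chaperones passed the test. In cultured against P0 ovaries, 3 of 62 chaperone probe sets were called, beside 5.43% of all tested probe sets. Of these 1 was higher, beside 3.48%, and 2 were lower, beside 1.95%. In P4 against P0 ovaries 0 of 62 were called, beside 1.08%. An unadjusted limma p was under 0.05 for 2 of them, beside 13.0% of all tested probe sets. With the chip batch as a block, which pairs P4 and P0 arrays of the same number, 1 was called, beside 5.13%. In cultured against P4 ovaries 0 of 62 were called, beside 2.78%, and 8 had an unadjusted limma p under 0.05, beside 14.0%. In cultured against P0 ovaries 11 had one, beside 20.8%. The 3 comparisons share arrays, so their values are not independent of each other. The median half-width of the 95% interval of a chaperone's change was 0.54, without adjustment for the number of tests. Smaller changes would usually not have been seen, and larger ones could also go uncalled. A change of 0.97 for Hsph1 in P4 against P0 ovaries was not called (limma adjusted p = 0.0681). One of -0.59 for Hsp90ab1 in cultured against P0 ovaries was called.

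The called genes were both cytosolic: Hsph1, the HSP110 nucleotide exchange factor of cytosolic HSP70, rose in culture, and Hsp90ab1, the constitutive cytosolic HSP90, fell. Of the changes in cultured against P0 ovaries, 82.26% of the chaperone probe sets and 72.85% of all tested ones lay within 0.5 of zero on the log2 scale. For P4 against P0 ovaries these shares were 90.32% and 80.78%, and in cultured against P4 ovaries 85.48% and 80.32%.

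**Figure D2:**
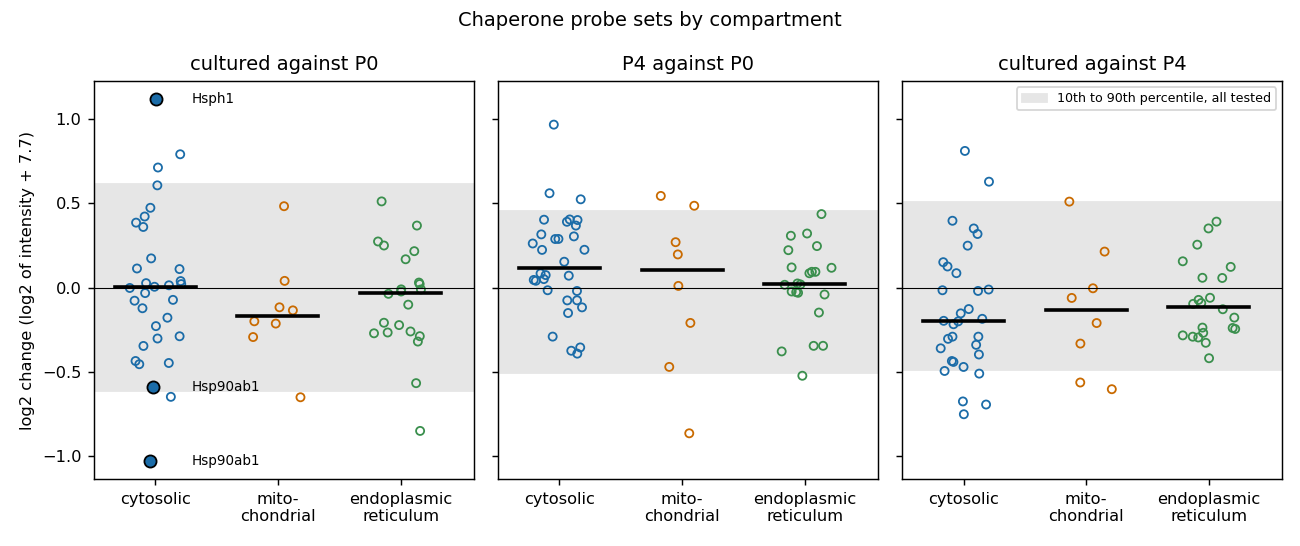
Log2 change of each tested chaperone probe set by compartment in the 3 comparisons: circles are probe sets, filled where called, black bars are class medians and the grey band holds the 10th to 90th percentile of all 6118 tested probe sets. Hsph1 (1.12) and the Hsp90ab1 probe sets (-0.59 and -1.03) are the filled circles, all in cultured against P0 ovaries.

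Hsph1 had intensities of 359.1 and 409.4 in cultured, 386.4 and 307.2 in P4, and 180.4 and 165.0 in P0 ovaries on its brighter probe set (rc_AI236601_at). All 4 arrays of cultured and P4 ovaries lay above both P0 arrays, while cultured and P4 ovaries overlapped. Its change in cultured against P0 ovaries was 1.12 ± 0.21 (log2, SE, n = 2 arrays each; 95% interval 0.65 to 1.59), a 2.17-fold rise with a limma adjusted p of 0.0157. At P4 its change from P0 was 0.97 ± 0.21 with an adjusted p of 0.0681, and 0.0128 with the chip batch as a block. It was 1.07 between the arrays of replicate number 1, which share a chip batch, and 0.87 between those of number 2. In cultured against P4 ovaries it was 0.15 ± 0.21 (adjusted p = 0.855). Leaving out either P0 array or either cultured array ended the call in cultured against P0 ovaries, with adjusted p-values of 0.051 to 0.135 and changes of 1.03 to 1.21.

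The other Hsph1 probe set (AA108277_at) read 30.1 and 51.6 in cultured, 50.7 and 41.9 in P4, and 36.0 and 40.9 in P0 ovaries. Its changes were 0.04 in cultured and 0.22 in P4 ovaries against P0, and neither was called. The Hsph1 probe sets therefore disagree in size, and the rise rests on the brighter of them.

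Hsp90ab1 was measured by 4 probe sets, and on each of them both cultured arrays lay below all 4 uncultured arrays. The brightest (S45392_at) read 3207.0 and 3221.1 in cultured, 4706.6 and 4218.5 in P4, and 5297.1 and 4409.2 in P0 ovaries. Its change in cultured against P0 ovaries was -0.59 ± 0.14 (log2, SE, n = 2 arrays each) with a limma adjusted p of 0.0394. A dimmer one (rc_AI008074_s_at) read 519.3 and 695.0 in cultured, 853.0 and 1089.0 in P4, and 1020.2 and 1493.9 in P0 ovaries, a change of -1.03 ± 0.24 against P0 (adjusted p = 0.0381). Both changes have the same direction, and in cultured against P4 ovaries they were -0.47 and -0.67, not called.

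The remaining Hsp90ab1 probe sets were lower in culture without passing the test. On rc_AI007820_s_at the values were 2716.0 and 2684.7 in cultured, 3454.8 and 3480.5 in P4, and 3778.1 and 3533.0 in P0 ovaries, a change of -0.44 against P0 (adjusted p = 0.0855). On rc_AI236795_s_at they were 2756.7 and 3188.1 in cultured, 3206.1 and 4179.6 in P4, and 4106.1 and 4023.1 in P0 ovaries, a change of -0.45 (adjusted p = 0.139). The suffix of 3 of the 4 identifiers marks probe sets that match several similar transcripts, so those values can include related HSP90 sequences. The calls depended on the processing, and on all probe sets but rc_AI008074_s_at the size of the change depended on the scaling. No Hsp90ab1 probe set was called with no filter on dim probe sets or with no intensity trend. After quantile normalization the changes in cultured against P0 ovaries were -0.19 on S45392_at, -0.09 on rc_AI007820_s_at and -0.10 on rc_AI236795_s_at. On rc_AI008074_s_at the change was then -1.02, and none of the 4 was called. After median centring the 4 changes ran from -0.97 to -0.38 with none called. Leaving out either cultured array or P0 replicate 1 ended the call of S45392_at, and leaving out either cultured array or P0 replicate 2 that of rc_AI008074_s_at.

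**Figure D3:**
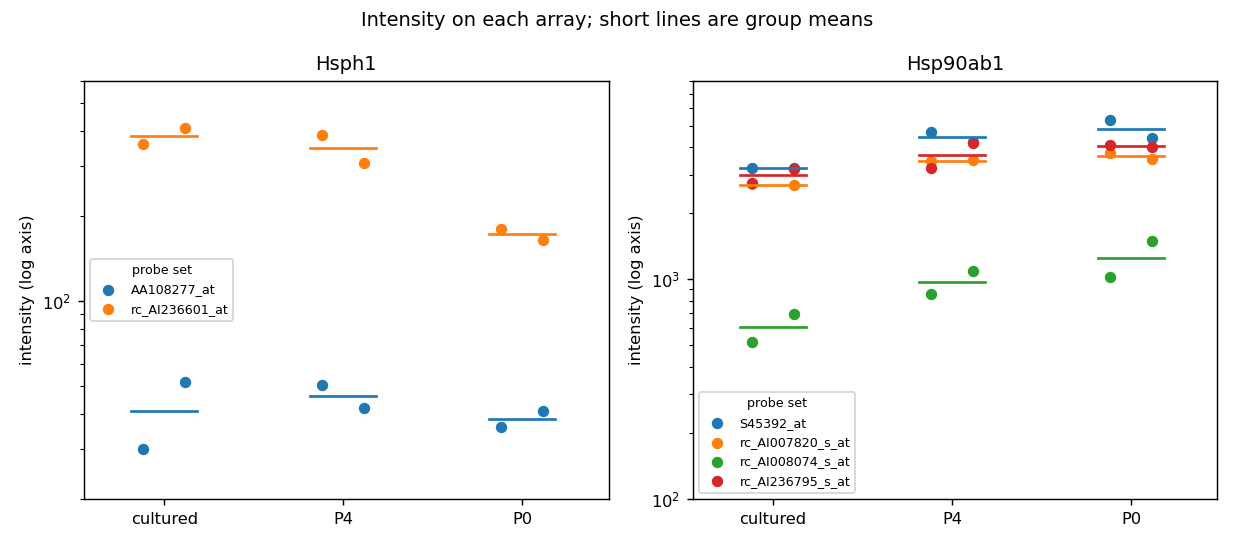
Intensity (log axis) of the Hsph1 and Hsp90ab1 probe sets on the cultured, P4 and P0 arrays, points for arrays and short lines for group means. The brighter Hsph1 probe set lies near 165 to 180 on both P0 arrays and above 300 on the others, and all 4 Hsp90ab1 probe sets are lowest on the cultured arrays.

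The cytosolic class as a whole had 32 tested probe sets, for 17 genes. Its median change was 0.00 in cultured and 0.12 in P4 ovaries against P0, and -0.20 in cultured against P4 ovaries, beside -0.08, -0.05 and -0.04 over all tested probe sets. In P4 against P0 ovaries the groups did not overlap for 13 higher and 2 lower cytosolic probe sets. Over all 62 chaperone probe sets these counts were 17 and 6, beside background shares of 18.6% and 25.7% of all tested ones. In cultured against P0 ovaries 7 cytosolic probe sets were higher and 10 lower without overlap, and over all 62 the counts were 9 and 18, beside 21.3% and 29.0%. In cultured against P4 ovaries 6 cytosolic probe sets were higher and 15 lower, and over all 62 the counts were 8 and 25, beside 19.1% and 24.5%. These counts include repeated readings of single genes. By the brightest probe set of each of the 32 tested genes, 10 were higher and 3 lower in P4 against P0 ovaries. They were 7 and 8 in cultured against P0, and 5 and 11 in cultured against P4. Of the 17 cytosolic genes, 3 were higher and 7 lower in cultured against P4 ovaries.

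Of 13 tested probe sets of cytosolic J-domain cochaperones, 8 were higher at P4 than at birth without overlap, beside 18.6% of all tested ones, and 0 were called or had an unadjusted limma p under 0.05. These 8 include all 3 probe sets of Dnaja2 and both of Dnajb1, so they are partly repeated readings of the same genes. They also include a Dnajc5 probe set that changed by 0.07. Dnajc17, another of them, was dim, at 24.3 and 27.4 in P4 and 23.6 and 21.3 in P0 ovaries. The groups overlapped for both probe sets of Dnaja4, for Dnajb5 and for 1 probe set each of Dnaja1 and Dnajc5. On all 3 probe sets of Dnaja2, a partner of the constitutive HSP70, both P4 arrays lay above both P0 arrays, with changes of 0.37 to 0.40. These were 0.10 to 0.16 between the arrays of replicate number 1 and 0.58 to 0.70 between those of number 2. The probe set rc_AI170685_g_at read 369.6 and 419.2 in cultured, 510.0 and 565.4 in P4, and 455.5 and 376.8 in P0 ovaries. P4 ovaries were thus above both other groups there, and on all 3 probe sets cultured ovaries were below P4 without overlap. Dnajb1 (HSP40), a stress-inducible partner of HSP70, read 207.7 and 345.1 in cultured, 352.9 and 419.6 in P4, and 286.2 and 245.9 in P0 ovaries on rc_AA945704_at, a change of 0.52 ± 0.26 in P4 against P0 ovaries (adjusted p = 0.448). That change was 0.30 between the arrays of number 1 and 0.75 between those of number 2. The other Dnajb1 probe set changed by 0.29, and on both the cultured arrays fell on either side of the P0 arrays. Dnaja1 was higher at P4 without overlap on 1 of its 2 probe sets (0.40) and changed by -0.02 on the other. The rise was 0.15 between the arrays of number 1 and 0.66 between those of number 2.

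Dnaja4 and Dnajb5 were instead highest in culture. Dnaja4 read 101.3 and 127.5 in cultured, 86.6 and 57.7 in P4, and 64.7 and 68.1 in P0 ovaries on rc_AA799570_at, a change of 0.71 ± 0.25 in cultured against P0 ovaries (adjusted p = 0.144). Its other probe set changed by 0.47, also without overlap. Dnajb5 read 70.8 and 55.4 in cultured, 49.5 and 48.0 in P4, and 28.2 and 51.8 in P0 ovaries, and its replicates at P0 differed more than its P4 and P0 means. Dnajc5, the cysteine string protein known from synaptic vesicles, went opposite ways on its probe sets: rc_AA859806_at changed by 0.42 in cultured against P0 ovaries (420.7 and 423.3 in cultured, 321.4 and 337.2 in P4, 311.2 and 314.9 in P0), while U39320_at was under 20 on both cultured arrays. The value 20 was the highest intensity of 15 control probe sets for bacterial transcripts that were not spiked in, and is used here as the background level.

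No member of the HSP70 family other than Hsph1 was called, and several were dim. The inducible HSP70 gene Hspa1a has a single probe set here, which read 3.0 and 32.2 in cultured, 11.6 and 8.3 in P4, and 17.3 and 17.7 in P0 ovaries, under the background level on 5 of 6 arrays, and it was not tested. Hspa1l, known from the testis, read under 20 on every array. Hspa2, which in the mouse is needed for male meiosis, read 23.3 to 32.1 on all 6 arrays. The 2 probe sets of Hspa4, an HSP110 relative of Hsph1, were lower without overlap in cultured ovaries than in both other groups. On AF077354_g_at they read 93.7 and 90.9 in cultured, 102.5 and 149.5 in P4, and 138.7 and 102.6 in P0 ovaries, and on AF077354_at 28.2 and 29.6 in cultured, 32.6 and 86.4 in P4, and 39.6 and 44.9 in P0 ovaries. The change on AF077354_at in cultured against P4 ovaries was the most negative cytosolic one (-0.75 ± 0.37, adjusted p = 0.413). It rests on P4 replicate 2, without which it was -0.14, and it was -1.36 without P4 replicate 1. Hspa4 and Hsph1 thus had opposite signs in cultured against P0 ovaries. Stip1 (HOP), which links HSP70 to HSP90, read 216.4 and 213.9 in cultured, 298.5 and 251.9 in P4, and 243.5 and 212.4 in P0 ovaries, a change of 0.26 in P4 against P0 ovaries (adjusted p = 0.667).

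The small heat shock proteins, which hold unfolded proteins without ATP, gave no common direction. Hspb1 (HSP25 of rodents) had 4 probe sets whose changes in cultured against P4 ovaries ran from -0.49 to 0.81, the widest disagreement within a chaperone gene in that comparison. On rc_AA998683_g_at it read 137.9 and 180.7 in cultured, 76.0 and 98.8 in P4, and 90.5 and 85.6 in P0 ovaries, on rc_AI176658_s_at 157.2 and 157.4 in cultured, 174.3 and 289.1 in P4, and 212.8 and 150.4 in P0 ovaries. The cultured arrays are therefore above the rest on 1 probe set and within or below them on another, so no level of Hspb1 in culture is settled. Hspb6 (HSP20) is abundant in muscle. On D29960_at it read 69.5 and 55.7 in cultured, 65.2 and 80.9 in P4, and 55.4 and 39.4 in P0 ovaries. Its change in P4 against P0 ovaries was 0.56 ± 0.25 (limma adjusted p = 0.397). That change was 0.21 between the arrays of replicate number 1 and 0.91 between those of number 2. The other Hspb6 probe set changed by 0.40, with 0.16 and 0.65 by replicate number. The cytosolic chaperonin subunits Cct3 and Cct6a changed by -0.08 and -0.37 in P4 and by -0.23 and -0.29 in cultured ovaries against P0, and neither was called.

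**Figure D4:**
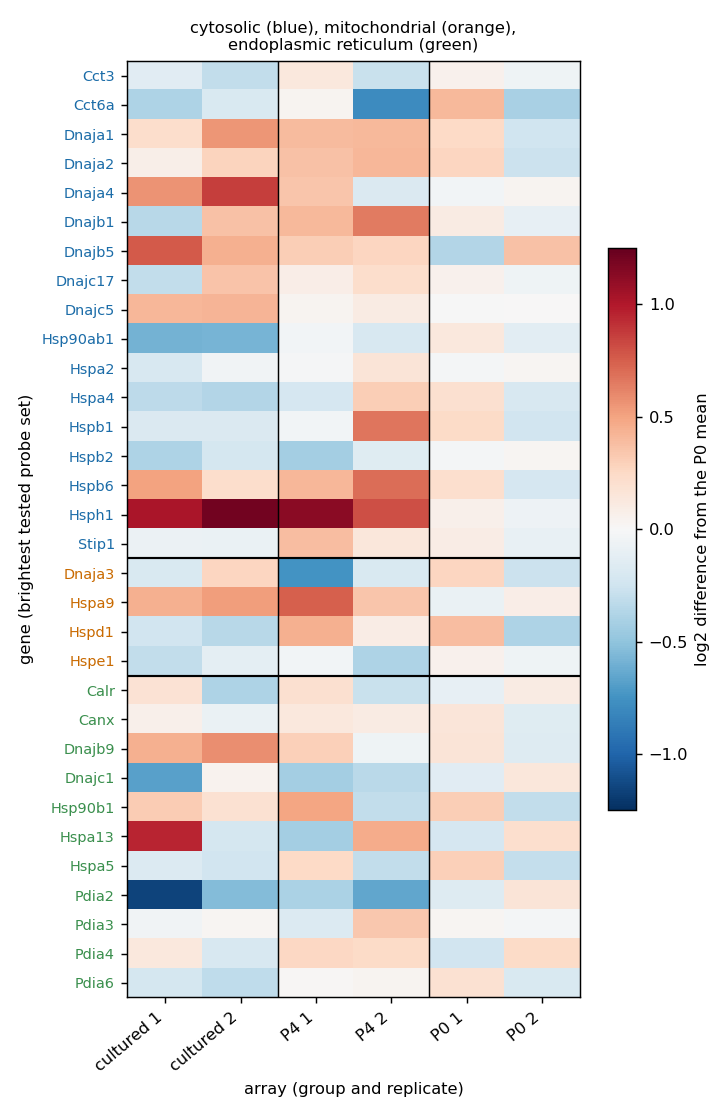
Log2 difference of each array from the P0 mean for the brightest tested probe set of the 32 chaperone genes, with the cultured, P4 and P0 arrays in columns and cytosolic, mitochondrial and ER genes in blocks. Hsph1 is above the P0 mean on all 4 cultured and P4 arrays, Hsp90ab1 is below it on both cultured arrays, and many ER rows differ as much between replicates as between groups.

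The 4 mitochondrial genes had 8 tested probe sets, of which 0 were called, while 1 had an unadjusted limma p under 0.05 in each comparison, against the shares of 20.8% (cultured against P0), 13.0% (P4 against P0) and 14.0% (cultured against P4) of all tested probe sets. Their median change was -0.17 in cultured and 0.10 in P4 ovaries against P0, and -0.14 in cultured against P4 ovaries. The P4 against P0 median turned to -0.13 without P0 replicate 2 and to -0.050 without P4 replicate 1, and was 0.31 without P0 replicate 1. The chaperonin subunit Hspd1, on its brighter probe set X54793_at, read 990.3 and 916.1 in cultured, 1593.3 and 1248.5 in P4, and 1526.5 and 894.4 in P0 ovaries. On rc_AA858640_s_at it read 710.5 and 548.7 in cultured, 1151.3 and 787.0 in P4, and 980.8 and 467.5 in P0 ovaries. Both cultured arrays lay below both P4 arrays on each, with changes of -0.56 ± 0.25 (adjusted p = 0.35) and -0.60 ± 0.33 (adjusted p = 0.477). The P0 replicates of Hspd1 lay so far apart that they bracketed the cultured arrays, and on X54793_at the sign of its change in cultured against P0 ovaries turned without P0 replicate 1 (to 0.09).

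Hspe1, which shares the promoter region of Hspd1, varied less. On rc_AI170613_at it read 1003.2 and 1145.2 in cultured, 1216.1 and 949.7 in P4, and 1288.0 and 1200.9 in P0 ovaries, and on rc_AI170613_g_at 843.2 and 812.0 in cultured, 1165.7 and 787.5 in P4, and 1051.2 and 861.0 in P0 ovaries. Both cultured arrays lay below both P0 arrays on each, with changes of -0.21 and -0.20 and adjusted p-values of 0.554 and 0.654. By group means, the 4 chaperonin probe sets were all lower in cultured than in P0 ovaries under each of the 3 scalings tried (as deposited, quantile, median centred). For Hspd1 this rests on P0 replicate 1. On both Hspd1 probe sets, both cultured arrays lay above P0 replicate 2. In P4 against P0 ovaries the changes of the 4 chaperonin probe sets ran from -0.21 to 0.49.

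The mitochondrial HSP70, Hspa9 (mortalin), gave different answers by probe set. On S78556_at it read 600.6 and 631.2 in cultured, 739.2 and 558.6 in P4, and 413.3 and 464.9 in P0 ovaries, so all cultured and P4 arrays were above P0, by 0.48 ± 0.20 (adjusted p = 0.208) and 0.54 ± 0.20 (adjusted p = 0.267). On rc_AA944973_at it read 15.1 and 44.8 in cultured, 17.3 and 27.9 in P4, and 47.3 and 45.9 in P0 ovaries, lower without overlap in both. On S75280_s_at the P4 against P0 change was 0.20. The range of 1.41 between the Hspa9 probe sets in P4 against P0 ovaries was the widest of the 18 chaperone genes with several tested probe sets, whose median range was 0.27. Only 9 of these 18 genes had 1 sign on all probe sets in that comparison. Dnaja3, a mitochondrial J-domain protein, read 32.4 and 47.2 in cultured, 19.5 and 32.2 in P4, and 47.1 and 30.3 in P0 ovaries, and its change in cultured against P4 ovaries (0.51 ± 0.32, adjusted p = 0.558) was the largest mitochondrial rise there.

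The ER class had 22 tested probe sets for 11 genes, of which 0 were called. Unadjusted limma p-values were under 0.05 for 2 in cultured against P0 ovaries, beside 20.8% of all tested, and for 0 in the other comparisons. Its median change was -0.03 in cultured and 0.02 in P4 ovaries against P0, and -0.11 in cultured against P4 ovaries. All 22 changes in cultured against P4 ovaries lay within 0.5 of zero on the log2 scale. Hspa5 (BiP), the ER HSP70 whose window carries an ER stress element near the start, read 1207.4 and 1149.0 in cultured, 1619.3 and 1097.5 in P4, and 1680.9 and 1103.2 in P0 ovaries on M14050_s_at. Its change was -0.21 ± 0.24 in cultured and -0.03 ± 0.24 in P4 ovaries against P0. On S63521_i_at it read 434.9 and 487.8 in cultured, 535.9 and 275.7 in P4, and 455.1 and 316.5 in P0 ovaries. The groups overlapped on both, and a further Hspa5 probe set lay near the background level.

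Hsp90b1 (GRP94), the ER HSP90, gave no single direction in culture. On S69315_at it read 354.8 and 555.6 in cultured, 627.9 and 566.3 in P4, and 568.5 and 769.5 in P0 ovaries, a change of -0.57 ± 0.25 in cultured against P0 ovaries (adjusted p = 0.233). On S69316_s_at it read 785.6 and 718.2 in cultured, 893.2 and 507.0 in P4, and 782.6 and 507.6 in P0 ovaries, a change of 0.25 ± 0.29. The remaining probe set changed by -0.26. The difference between Hsp90b1 and Hsp90ab1 was not tested.

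Calreticulin, the soluble lectin chaperone, had 3 probe sets. Calr read 1861.4 and 1251.5 in cultured, 1880.7 and 1347.1 in P4, and 1522.7 and 1761.1 in P0 ovaries on D78308_at. On D78308_g_at it read 870.6 and 519.0 in cultured, 947.4 and 528.0 in P4, and 651.7 and 673.5 in P0 ovaries, and on X53363cds_s_at 820.8 and 530.2 in cultured, 932.4 and 679.6 in P4, and 475.4 and 722.8 in P0 ovaries. In cultured and P4 ovaries replicate 1 was above replicate 2 on all 3 probe sets, and the groups overlapped on each in all comparisons. The largest ER rise in P4 against P0 ovaries was 0.44 ± 0.28 for Calr on X53363cds_s_at (adjusted p = 0.575).

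Calnexin, the membrane-bound lectin chaperone, had 5 probe sets. On rc_AI010725_g_at Canx read 1335.7 and 1205.4 in cultured, 1398.7 and 1376.2 in P4, and 1418.7 and 1151.2 in P0 ovaries. On all 8 probe sets of Calr and Canx the mean log2 value was lower in cultured than in P4 ovaries (changes of -0.29 to -0.06), under each of the 3 scalings. On 4 of them the groups did not overlap, beside 24.5% of all tested probe sets. All 4 report Canx, so they are repeated readings of 1 gene. Against P0, 6 of the 8 changes of Calr and Canx at P4 were positive, and 7 and 8 after quantile normalization and median centring.

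The disulfide isomerases, which form and rearrange disulfide bonds, had 5 tested probe sets and none was called. Pdia3 (ERp57), the partner of the lectins, read 993.1 and 1046.0 in cultured, 911.5 and 1303.2 in P4, and 1043.3 and 1010.9 in P0 ovaries on X12355_s_at. Pdia6 read 1096.4 and 1024.5 in cultured, 1291.6 and 1313.7 in P4, and 1460.7 and 1122.0 in P0 ovaries, and was lower without overlap in culture than in both other groups (-0.27 ± 0.18 against P0, adjusted p = 0.431). Pdia4 read 519.2 and 411.0 in cultured, 566.9 and 560.8 in P4, and 400.8 and 560.5 in P0 ovaries. Pdia2, known mainly from the pancreas, read 16.7 and 29.8 in cultured, 33.8 and 27.0 in P4, and 41.1 and 53.2 in P0 ovaries. Its change of -0.85 ± 0.30 in cultured against P0 ovaries (adjusted p = 0.144) was the largest ER fall, close to the background level.

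The ER J-domain protein Dnajb9 (ERdj4), an ER stress target, was the largest ER rise in cultured against P0 ovaries. It read 148.8 and 164.9 in cultured, 133.6 and 103.4 in P4, and 121.1 and 95.5 in P0 ovaries, a change of 0.51 ± 0.23 (adjusted p = 0.251). Both cultured arrays lay above the other 4. Hspa13, an ER and microsomal HSP70 relative, read 79.6 and 30.9 in cultured, 25.7 and 54.3 in P4, and 31.2 and 44.3 in P0 ovaries, with replicates further apart than groups. Dnajc1 read 19.6 and 37.5 in cultured, 25.0 and 27.1 in P4, and 32.1 and 40.6 in P0 ovaries. Dnajb14 was not tested.

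ER and cytosolic chaperones also differed between replicate arrays of a group. At P4, 17 of 22 ER probe sets (77.27%) and 6 of 8 mitochondrial ones were higher on replicate 1 than on replicate 2, against 8 of 32 cytosolic ones (25.0%) and 47.5% of all tested probe sets. The median difference of replicate 1 minus replicate 2 was 0.24 for the ER class and -0.14 for the cytosolic class. In cultured ovaries 13 of 22 ER and 10 of 32 cytosolic probe sets were higher on replicate 1, beside 44.18% of all. In P0 ovaries 7 of 8 mitochondrial, 11 of 22 ER and 20 of 32 cytosolic ones were, beside 54.4%. At P4 the class medians of the ER on both pools, 0.21 and -0.14, thus lay on either side of the P0 mean.

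**Figure D5:**
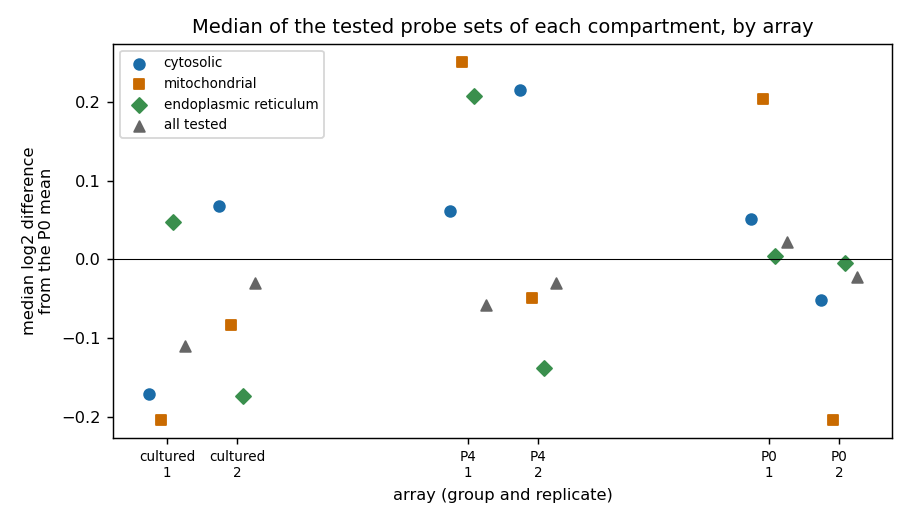
Median log2 difference from the P0 mean over the tested probe sets of each compartment and over all tested probe sets, for each array. The ER median is 0.21 on P4 replicate 1 and -0.14 on P4 replicate 2, and the mitochondrial median is 0.20 and -0.20 on the P0 arrays.

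Genes that work with the chaperones but do not bear their names were read from 3 lists. Of 13 tested cytosolic partners (38 listed), such as heat shock factors, BAG proteins and prefoldins, 0 were called in each comparison. An unadjusted limma p was under 0.05 for 1 in each. Of all tested probe sets, 20.8% had one in cultured against P0 ovaries, 13.0% in P4 against P0 and 14.0% in cultured against P4. The shares called were 5.43%, 1.08% and 2.78%. Fkbp4 (FKBP52), the immunophilin of steroid receptor and HSP90 complexes, read 216.7 and 213.1 in cultured, 300.5 and 328.6 in P4, and 168.0 and 189.8 in P0 ovaries. Its change in P4 against P0 ovaries was 0.79 ± 0.20 (adjusted p = 0.107, and 0.0305 with the chip batch as a block). P4 ovaries were above both other groups, as they were for Dnaja2 and for the summed oocyte, granulosa and cell cycle markers. St13 (HIP), a cochaperone of HSP70, read 470.3 and 514.5 in cultured, 618.1 and 637.3 in P4, and 493.5 and 502.9 in P0 ovaries. Hsf1, the heat shock factor, read 215.3 and 192.4 in cultured, 238.0 and 260.5 in P4, and 215.6 and 323.8 in P0 ovaries, with groups that overlapped in P4 against P0.

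Of 5 tested mitochondrial partners (14 listed), 0 were called. An unadjusted limma p was under 0.05 for 2 in cultured against P0 ovaries, beside 20.8% of all tested probe sets. It was under 0.05 for 2 in P4 against P0 ovaries, beside 13.0%, and for 0 in cultured against P4 ovaries, beside 14.0%. Clpb, a disaggregase of the mitochondrial intermembrane space, read 84.6 and 86.7 in cultured, 108.4 and 95.1 in P4, and 49.6 and 49.6 in P0 ovaries, with changes of 0.70 ± 0.21 in cultured (adjusted p = 0.0979) and 0.93 ± 0.21 in P4 ovaries (adjusted p = 0.089) against P0. Timm44, which anchors Hspa9 at the import channel, read 27.3 and 26.0 in cultured, 29.7 and 24.6 in P4, and 48.1 and 52.1 in P0 ovaries (-0.75 and -0.73, adjusted p = 0.126 and 0.232). On both genes P0 ovaries lay apart from the other groups. With the chip batch as a block Clpb passed the test in P4 against P0 ovaries (adjusted p = 0.0298) and Timm44 did not (adjusted p = 0.112).

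Of 17 tested ER partners (36 listed), 2 rose in cultured against P0 ovaries, beside 3.48% of all tested probe sets. In P4 against P0 ovaries 1 rose, beside 0.85%. In cultured against P4 ovaries 0 were called, beside 2.78%, and 1 had an unadjusted limma p under 0.05, beside 14.0%. Plod2, a lysyl hydroxylase that modifies collagen in the ER, read 351.6 and 320.5 in cultured, 458.8 and 299.7 in P4, and 158.0 and 135.0 in P0 ovaries. It rose by 1.16 ± 0.24 in cultured (adjusted p = 0.0251) and by 1.30 ± 0.24 in P4 ovaries (adjusted p = 0.0422). With the chip batch as a block, 3 genes of the lists (Plod2, Clpb and Fkbp4) rose in P4 against P0 ovaries. Of all tested probe sets, 5.13% were then called in either direction. With the batch as a random block 4 genes were called, Asns in addition. The Asns values at P4 and P0 were near or under the background level of 20. Of these lists 0 genes were called in P4 against P0 ovaries when any array other than P4 replicate 2 was left out, and 0 in cultured against P0 ovaries without cultured replicate 2. Asns, asparagine synthetase and a target of the stress factor ATF4, read 31.0 and 39.5 in cultured, 20.8 and 16.2 in P4, and 2.3 and 4.0 in P0 ovaries. With the P0 arrays set to the background level of 20, Asns was at least 1.75-fold higher in cultured than in P0 ovaries, a bound that was not tested. The limma adjusted p of 0.00951 belongs to the change of 1.98 without that setting, which rests on P0 values under the background level. At P4 the same bound was 0.92-fold, so a rise of Asns from P0 to P4 is not shown. Ddit3 (CHOP), another stress factor, read 79.1 and 59.9 in cultured, 71.5 and 40.4 in P4, and 45.1 and 24.9 in P0 ovaries (0.88 ± 0.33 in cultured against P0, adjusted p = 0.162). Plod2 and Asns are enzymes and not folding chaperones.

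Markers of cell types moved with the same groups. For comparison, 5.43% of all tested probe sets were called in cultured against P0 ovaries, 1.08% in P4 against P0 and 2.78% in cultured against P4. An unadjusted limma p was under 0.05 for 20.8%, 13.0% and 14.0% of them. Of 7 tested macrophage and leukocyte markers 5 rose in culture, and their summed intensity was 1755 to 3569 in cultured, 271.8 to 350.6 in P4 and 413.3 to 504.9 in P0 ovaries. Fcgr2b was under the background level at P4 and P0, and C1qb at P4. Of 4 adipocyte markers 3 rose in culture (1157 to 1706 in cultured, 174.1 to 255.7 in P4, 88.3 to 115.7 in P0), with Plin1 under the background level in every group, Cfd at P4 and Fabp4 at P0. Of 5 erythroid markers 3 fell in cultured against P0 ovaries (200.1 to 236.7 in cultured, 3359 to 4473 in P4, 6031 to 6180 in P0), with Hbe1 under the background level in cultured and P4 ovaries. Of 5 oocyte markers 3, the zona pellucida genes, rose in cultured and in P4 ovaries against P0, with sums of 3006 to 3138 in cultured, 3820 to 4132 in P4 and 1065 to 1197 in P0. Of 3 meiotic markers 2 fell in both (92.8 to 96.4 in cultured, 116.1 to 120.8 in P4, 318.9 to 536.5 in P0). Of 10 granulosa and pregranulosa markers 2 (Inha and Cyp19a1) rose in P4 against P0 ovaries, 2 rose and 1 fell in cultured against P0 ovaries, and the sums were 1542 to 1691 in cultured, 2611 to 3691 in P4 and 1820 to 1858 in P0 ovaries. Cyp19a1 was under the background level in cultured and P0 ovaries. Of 7 cell cycle genes 1 (Ccnb1) rose in P4 against P0 ovaries and all 7 had an unadjusted limma p under 0.05, with sums of 3534 to 3591 in cultured, 4462 to 5588 in P4 and 2520 to 3340 in P0 ovaries. None of 4 skeletal muscle (203.3 to 222.1 in cultured, 266.5 to 288.6 in P4, 321.5 to 353.9 in P0), 4 endothelial (211.1 to 299.4 in cultured, 255.3 to 372.7 in P4, 413.0 to 517.2 in P0) or 8 smooth muscle and pericyte markers (1052 to 2138 in cultured, 1818 to 2138 in P4, 1435 to 1726 in P0) was called in any comparison. In cultured against P0 ovaries 1, 3 and 3 of these had an unadjusted limma p under 0.05. The erythroid, granulosa, skeletal muscle and meiotic sums were lowest in culture, as Hsp90ab1 was. The granulosa markers did not share a direction there. Their median change in cultured against P0 ovaries was 0.004, and in cultured against P4 ovaries 2 of them rose and 3 fell. P0 ovaries lay apart from both other groups, as for Hsph1 and Plod2, in the oocyte, cell cycle and adipocyte sums, which were lowest there. The meiotic, erythroid, skeletal muscle and endothelial sums also set P0 ovaries apart, as the highest group. The part of these cells in the chaperone results was not tested.

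Among 12 tested genes of the immediate early and culture stress list, 0 rose and 1 (Socs3) fell in cultured against P0 ovaries, and 0 were called in P4 against P0. An unadjusted limma p was under 0.05 for 4 in cultured against P0, 0 in P4 against P0 and 3 in cultured against P4 ovaries. The shares of all tested probe sets were 20.8%, 13.0% and 14.0%. In cultured against P4 ovaries 2 rose (Ier3 and Hmox1) and Socs3 fell. Socs3 was under the background level in cultured ovaries. The summed level was 1617 to 1965 in cultured, 1093 to 2375 in P4 and 1143 to 1838 in P0 ovaries, so the groups overlapped. Actb, often used as a reference gene, changed by -0.29 in cultured and 0.13 in P4 ovaries against P0 and was not called.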

How the data were processed

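The authors deposited linear intensities, 1 value per probe set and array, already scaled to one trimmed mean (the lowest and highest 2% left out); the software behind them is not given in the sources used here. Groups and replicate numbers came from the labels. Symbols came from the platform annotation: 7018 probe sets had 1, 308 several and 1473 none. Of the 7018, 6994 matched a RefSeq gene table by gene number. The chaperones, compartments, partner and marker lists and tests were chosen with earlier results of these data known.

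From the deposited intensities, log2(intensity + 7.7) was taken, 7.7 being the 20th percentile of all values. Of 8740 probe sets that are not controls, 2622 under the 30th percentile of mean log2 were left out. The 3 groups shared one limma model over the 6 arrays (version 3.58.1, R 4.3.3, intensity trend, 3 residual and 6.451 prior degrees of freedom), two-sided, with Benjamini-Hochberg adjustment over 6118 probe sets. The fit was tested on simulated data first. With 2 arrays against 2, an exact permutation p cannot go below 0.333. Partner and marker genes with several probe sets were counted by the tested one of highest mean, as were chaperone genes where the brightest probe set is named. Other chaperone counts are of probe sets.

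Array values are given for genes called in any comparison, for the probe set of highest mean in each compartment and its gene, for Hspa1a, and for partners of smallest p. The genes with the largest rise and fall of each compartment are among those named, though not every such change is given or marked as the largest. Other members were described after their values were seen. By the endings of the chip identifiers in the labels, P4 and P0 arrays of the same number share a chip batch (called A for number 1 and B for number 2), and the cultured arrays share none. The number therefore pairs P4 with P0, where deviations from group means correlated at 0.33. Cultured and batch cannot be told apart. The background level of 20 was set after the data were seen. Protein sequences were not used here. Motif counts used Python 3.11.15.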

Additional observations from a re-analysis of the deposited data

How the results depend on the processing

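Leaving out each array in turn, the chaperone probe sets called in cultured against P0 ovaries numbered 0 to 3. They numbered 1 (Hsph1) with no filter on dim probe sets, after quantile normalization, after median centring and with no intensity trend, against 3 in the fit reported. Partner genes called in cultured against P0 ovaries numbered 0 to 2 over the left-out arrays (0 without cultured replicate 2), and 1 with a pseudocount of 1, with a filter at the 50th percentile and with no trend. In P4 against P0 ovaries they numbered 0 to 1 over the left-out arrays (1 without P4 replicate 2 and 0 without any other), and 0 with a pseudocount at the 40th percentile, no filter, quantile normalization, median centring, no trend or only the 4 arrays compared.

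With the replicate block, which pairs P4 and P0 arrays by chip batch, 1 chaperone probe set (Hsph1) and 3 partner genes (Plod2, Clpb and Fkbp4) were called in P4 against P0 ovaries, and with the chip batch as a random block 1 and 4 (Asns in addition). The block changed no other count of chaperone calls. Same-numbered deviations correlated at -0.135 between cultured and P0 arrays and at -0.054 between cultured and P4 arrays. With crossed pairing, added after the data were seen as were all the alternatives for partners, 4 chaperone probe sets were called in cultured against P0 ovaries, against 3 with the same numbers paired.

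In P4 against P0 ovaries the median of all chaperones was 0.16 after median centring, and the cytosolic median was 0.22 with the stricter filter and 0.062 to 0.22 over the left-out arrays. Over the left-out arrays the ER median ran from -0.14 to 0.21 and the mitochondrial median from -0.13 (without P0 replicate 2) to 0.31 (without P0 replicate 1). In cultured against P0 ovaries the medians over the left-out arrays ran from -0.15 to 0.053 (all chaperones), -0.17 to 0.068 (cytosolic), -0.40 to 0.13 (mitochondrial) and -0.17 to 0.048 (ER). In cultured against P4 ovaries the median of all chaperones was -0.14 with the higher pseudocount and -0.21 to -0.13 over the left-out arrays, and the mitochondrial median ran from -0.30 to 0.015.

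Small changes turned sign. For Calr on D78308_at the change in P4 against P0 ovaries was 0.011 after quantile normalization, 0.039 after median centring and -0.28 to 0.20 over the left-out arrays. It was -0.39 to 0.18 in cultured against P0 ovaries and -0.35 to 0.22 in cultured against P4 ovaries. At P4 the change of Hsp90ab1 from P0 on S45392_at was 0.17 after quantile normalization and -0.25 to 0.015 over the left-out arrays. For Hspd1 on X54793_at it was -0.11 to 0.65 in P4 and -0.68 to 0.090 in cultured ovaries against P0, and for Hsph1 in cultured against P4 ovaries -0.011 to 0.31. The cause was not tested. Among the values of single genes under the alternatives, 13 reversed direction. The filter, trend and block alternatives leave the change itself as it was, so its direction could not turn under them. A lone array left in a group was assumed to vary like the other groups. The number of arrays and, near the background level of 20, the intensity limit the precision.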
